A study of Homo sapiens and Mus musculus with 12 samples.

Results

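The proteasome subunits and regulators described here are the genes whose symbols, in capitals, start with PSM, a letter from A to G and a digit in the expression tables of the human melanoma line A375 and the mouse melanoma line Yumm1.7. Symbols with the ending of a pseudogene were dropped. The A375 table held 60 such symbols, 8 were dropped, and 52 of its 16782 rows remained. The Yumm1.7 table held 49, 1 was dropped, and 48 of its 12711 rows remained. The A375 rows are 46 proteasome genes, 5 antisense RNAs named after proteasome genes, and PSMC3IP, a gene of meiotic recombination that shares only the letters. The Yumm1.7 rows are 47 proteasome genes and Psmc3ip. In both lines 31 of the genes encode the constitutive particle: 7 subunits of the α ring, 7 of the β ring, 6 ATPases and 11 non-ATPase subunits of the regulatory particle. The others are 3 inducible catalytic subunits, 7 assembly chaperones, and the activators with the inhibitor, 5 in A375 and 6 in Yumm1.7, where Psme2b is listed as well. PSMA8 and PSMB11, the testis and thymus subunits, were not analysed here.

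The study compared parental melanoma cells with drug-tolerant persister cells, which survive a drug without stable resistance, by polysome profiling. In the labels the states appear as P and S, with no word on which letter means which cells and with no drug, dose or time, so a difference always reads S relative to P. For every line and state there was 1 library of input RNA, 1 of the monosome fraction (the single-ribosome peak with lighter fractions before it) and 1 of the polysome fraction (the 4 to 5 densest fractions, where mRNAs carry many ribosomes), 12 libraries in all. With 1 library per group there was no replicate check, and no test, standard error or p-value is given for any difference.

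The proteasome degrades proteins tagged with ubiquitin. Its core particle is a stack of α and β rings: the α rings gate the entrance, and PSMB5, PSMB6 and PSMB7 in the β rings cut the chain after hydrophobic, acidic and basic residues. The regulatory particle caps the core. Its ATPases unfold the substrate and thread it inward, while its non-ATPase subunits receive ubiquitin and remove it. Interferon replaces the catalytic subunits by PSMB8, PSMB9 and PSMB10, which gives the immunoproteasome and peptides suited to antigen presentation. Chaperones build the rings and the base of the cap without staying in the particle. A constitutive particle holds each of its subunits in equal number, and in many cell types their genes are transcribed together through NFE2L1, a membrane-bound factor released when proteasome activity falls short.

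Sequence upstream of the RefSeq transcript start is shown for a few human members. PSMA3, PSMB3 and PSMC3 are constitutive subunits, from the α ring, the β ring and the ATPases. Their mRNAs were lower in S than in P in A375 input RNA, at log2 differences of -1.12, -0.29 and -1.11 on the scale explained below. All 3 hold a CCAAT box, as do 15 of the 26 constitutive members with a promoter window, so they do not stand for the others. PSMB10 is the inducible subunit that was at least 2-fold higher in S input in both lines. PSMG1 and PSMG4 are chaperones of the α ring. PSMG1 had the lowest S relative to P of the A375 proteasome genes in input, and PSMG4 had opposite values in the 2 lines. The sequences come from RefSeq promoter windows on GRCh38.p14, which were found for 46 of the 52 A375 rows. They run 5′ to 3′ on the strand of the gene. The stretches of PSMA3, PSMB3 and PSMC3 leave out bases that a GENCODE 29 exon covers. The short contexts of PSMB10, PSMG1 and PSMG4 lie before the RefSeq start and can overlap exons of that annotation. The PSMG1 context lies wholly in GENCODE 29 exons of PSMG1. Before the PSMB10 start the longest stretch free of exons is 13 bases, so the PSMB10 context of 30 bases overlaps PSMB10 exons. Capitals mark a CCAAT box (CCAAT or ATTGG on the other strand), the core of the antioxidant response element that NFE2L1 and NFE2L2 bind (TGACNNNGC), or the core bound by interferon regulatory factors (GAAANNGAA).
PSMA3: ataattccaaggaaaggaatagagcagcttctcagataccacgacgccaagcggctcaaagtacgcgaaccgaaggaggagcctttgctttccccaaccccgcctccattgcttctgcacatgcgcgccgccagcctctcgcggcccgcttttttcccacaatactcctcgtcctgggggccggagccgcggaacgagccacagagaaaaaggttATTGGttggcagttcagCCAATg
PSMB3: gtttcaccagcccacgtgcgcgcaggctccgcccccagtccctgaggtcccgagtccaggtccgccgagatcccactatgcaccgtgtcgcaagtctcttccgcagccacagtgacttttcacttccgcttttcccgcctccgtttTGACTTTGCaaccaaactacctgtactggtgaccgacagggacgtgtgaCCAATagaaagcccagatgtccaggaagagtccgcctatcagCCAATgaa
PSMC3: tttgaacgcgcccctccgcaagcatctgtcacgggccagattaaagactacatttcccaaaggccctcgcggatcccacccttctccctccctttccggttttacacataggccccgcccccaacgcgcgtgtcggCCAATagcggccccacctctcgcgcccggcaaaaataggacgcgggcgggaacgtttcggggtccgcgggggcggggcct
PSMB10: agggtaaaggcGAAAGCGAAagcaggaagt
PSMG1: ggcccagggcaTGACAGCGCgggcgggcgg
PSMG4: cttccggggccGAAAGCGAAagcgcgctcg
The PSMA3 stretch is chr14:58244593-58244830 on the plus strand and holds CCAAT boxes that start 35 and 18 bases before the transcript start. PSMB3, chr17:38752491-38752735 on the plus strand, holds an antioxidant response core 104 bases and CCAAT boxes 55 and 13 bases before the start. PSMC3, chr11:47426474-47426689 on the minus strand, holds a CCAAT box 114 bases before the start. The PSMB10 context, chr16:67936853-67936882 on the minus strand, surrounds an interferon regulatory factor core 21 bases before the start. The PSMG1 context, chr21:39183616-39183645 on the minus strand, surrounds an antioxidant response core at position -183 from the start, and the PSMG4 context, chr6:3258903-3258932 on the plus strand, an interferon regulatory factor core 33 bases before it.

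Motif letters were counted on both strands in windows of 300 bases, 250 before and 50 after the start, and the share over all 27305 genes with a window stands beside each count. The antioxidant response core was present in 7 of the 26 constitutive members with a window (26.9%; 16.1% of all genes), in 4 of 6 chaperones (PSMD5, PSMD9, PSMG1 and PSMG2) and in 3 of 5 genes of the activator list. The CCAAT box was present in 15 of 26 constitutive members (57.7%; 39.7% of all genes). The interferon regulatory factor core was present in 3 of 26 constitutive members (11.5%, beside 9.86% of all genes), and in PSMB8 and PSMB10 of the 3 inducible subunits. It was also present in 1 of 6 chaperones (PSMG4) and in 2 of 5 genes of the activator list (PSME1 and PSME2). The gamma-activated site TTCNNNGAA was present in 5 of 26 constitutive members (19.2%, beside 9.38% of all genes), in PSMB8 and in PSME3. In A375 input, the median log2 difference of S against P, on the scale explained below, was -0.75 for the 7 constitutive members with the antioxidant response core and -0.76 for the 19 without it, and -0.75 for both the 15 with and the 11 without a CCAAT box. For the gamma-activated site the median was -0.82 for the 5 members with it and -0.63 for the 21 without. For the interferon regulatory factor core it was -0.62 for the 3 members with it and -0.75 for the 23 without. None of these differences was tested. A match of letters is a description of the window and not a binding site.

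Values are TPM, transcripts per 1000000, a level per transcript length that is relative within its library. The TPM listed summed to 66.6% to 90.1% of the full scale of 1000000 in the A375 libraries and 84.5% to 94.4% in the Yumm1.7 libraries, and the depth of each library is unknown. Of the genes that mark the melanocyte lineage, 6 of 8 were listed in A375, with a summed level of 259 to 864 TPM, and 4 of 8 in Yumm1.7, with 0.571 to 7.21 TPM, where Pmel, Mlana and S100b were at 0 in S input, so the labelled melanoma identity of Yumm1.7 had little support from these genes. In Yumm1.7 the 6 fibroblast markers summed to 189 to 424 TPM in P and 382 to 814 TPM in S. Only 3 of the 6 reached 1 TPM in each P library and 4 to 5 in the S libraries, and Col1a1 was at 0 in P input and P monosomes. The single leukocyte marker listed was at 8.18 to 15 TPM in P and 0.356 to 0.849 TPM in S. Fibroblast markers stayed at or below 1.38 TPM, leukocyte markers at or below 3.36 TPM and endothelial markers at or below 0.676 TPM in A375. The part of these markers in the Yumm1.7 results below was not tested. In bulk RNA, fewer cells of a type and less of an mRNA per cell cannot be told apart.

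Differences are log2 differences of TPM plus 1, taken over genes averaging 1 TPM or more in the line's 6 libraries (12638 genes in A375 and 10492 in Yumm1.7), minus the median gene of the comparison, so a value of 0 marks a gene that moved like the median gene. This matters most in Yumm1.7, where the median gene itself differed between S and P by -0.94 in input, -0.21 in monosomes and -1.53 in polysomes. The shifts in A375 were -0.20, 0.04 and -0.21. A gene can therefore lie above the median gene in Yumm1.7 and still have fewer TPM in S, and TPM are given beside such values. Differences of at least 2-fold on this scale were counted. All 48 Yumm1.7 rows and 47 of the 52 A375 rows passed the filter, and PSMB9 and 4 antisense RNAs of A375 did not.

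In the input RNA of both lines, the constitutive proteasome genes were not level with each other. Their median in A375 P input was 286 TPM, from 71.1 TPM for PSMB2 to 1456 TPM for PSMB4, a range of 20.5-fold between subunits that the particle holds in equal number. In Yumm1.7 P input the median was 228 TPM, from 53.9 TPM for Psmd6 to 631 TPM for Psmb3, a range of 11.7-fold. The levels of the 31 genes in P input followed each other loosely between human and mouse (Pearson r = 0.55, Spearman rho = 0.58 across genes, a description of 2 libraries). On GRCh38, per GENCODE 29, PSMD14 spans chromosome 2 from 161308038 to 161411717 on the plus strand, PSMA6 chromosome 14 from 35278633 to 35317493 on the plus strand, PSMG1 chromosome 21 from 39174769 to 39183851 and PSMG3 chromosome 7 from 1567330 to 1571005, both on the minus strand. Summed over all proteasome genes, A375 input held 11489 TPM in P and 7044 TPM in S, or 1.15% and 0.704% of the full TPM scale. Yumm1.7 input held 9163 TPM in P and 5702 TPM in S, or 0.916% and 0.570%. The summed TPM was thus lower in S than in P in the input of both lines. These sums are not set against the median gene, which itself differed by -0.20 in A375 input and -0.94 in Yumm1.7 input.

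In A375 input RNA, nearly the whole constitutive particle was lower in S than in P. The 31 genes had a median of -0.66, and 30 of them lay below the median gene. Differences of at least 2-fold were found lower for 6 (PSMA3, PSMC1, PSMC3, PSMD6, PSMD11 and PSMD14) and higher for 0, beside 16.2% of all genes lower and 15.6% higher. On the TPM as deposited the median was -0.86, with 10 genes lower and 0 higher. The medians were -0.63 in the α ring, -0.38 in the β ring, -0.83 for the ATPases and -0.75 for the non-ATPase subunits, so the cap lay somewhat below the core: all 17 of its genes were below the median gene.

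The catalytic subunits of A375 followed this pattern in small steps. PSMB5 stood at 316, 87.8 and 522 TPM in the input, monosomes and polysomes of P and at 243, 83.8 and 488 TPM in S (-0.18 in input). PSMB6 stood at 302, 50.6 and 463 TPM in P and 202, 75.6 and 362 TPM in S (-0.38), and PSMB7 at 525, 155 and 860 TPM in P and 289, 179 and 570 TPM in S (-0.66). All 3 had fewer TPM in S input, where none reached 2-fold, and PSMB6 and PSMB7 had more in S monosomes. PSMD14, the subunit that cuts ubiquitin chains off the substrate, had the lowest value of the 31: 309 TPM in P input, 41.0 in P monosomes and 515 in P polysomes, and 120, 61.6 and 325 TPM in the same fractions of S (-1.16 in input). PSMD6, a scaffold of the cap, was next, with 233, 42.7 and 446 TPM in P and 92.7, 32.3 and 323 TPM in S (-1.12). PSMD4, a ubiquitin receptor, was closer to level at 500, 73.1 and 892 TPM in P and 352, 89.2 and 1078 TPM in S (-0.30 in input). PSMD4 was thus lower in S input and higher in S polysomes than in P. The only constitutive gene above the median gene was PSMA6 of the α ring, at 335, 103 and 876 TPM in P and 364, 145 and 964 TPM in S (0.32 in input), higher in S in each fraction.

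In Yumm1.7 input RNA, the ring medians of the core particle separated. The α-ring median lay far below the median gene, while the β-ring median was close to it. The genes of the rings overlapped, since Psma5 (-0.57), Psma6 (-0.35) and Psma7 (-0.04) lay above Psmb2 of the β ring (-0.73). The 31 constitutive genes had a median of -0.35, with 9 at least 2-fold lower and 3 at least 2-fold higher, beside 22.3% and 23.1% of all genes. Against the TPM as deposited the median was -1.29, with 17 lower and 0 higher. The α ring had a median of -1.42, with all 7 genes below the median gene and 4 at least 2-fold lower, and the β ring had a median of 0.19, with 6 of 7 genes above the median gene. The sign of the β-ring value depends on the settings: it was -0.75 on the TPM as deposited, -0.46 after rescaling without mitochondrial genes, -0.19 with a pseudocount of 5 TPM and -0.06 with no filter on low genes, and all 7 β-ring genes had fewer TPM in S. The distance between the ring medians does not depend on the centring, and it was -1.61 in Yumm1.7 and -0.25 in A375. Over the other settings tried it ranged from -1.50 to -1.62 in Yumm1.7.

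**Figure D1:**
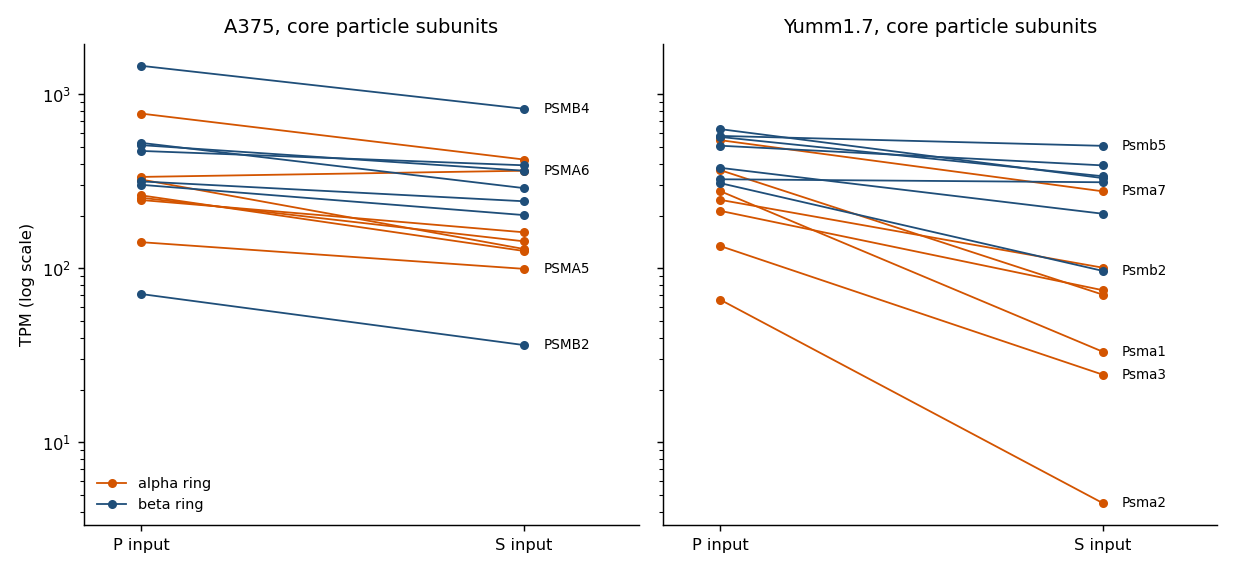
Levels of the 14 core particle genes in P and S input, in TPM on a log axis, with A375 on the left and Yumm1.7 on the right, α-ring genes in orange and β-ring genes in blue, 1 library per point. In A375 each line but that of PSMA6 falls, with S over P from 0.399-fold for PSMA3 to 0.827-fold for PSMB1. In Yumm1.7 the α-ring genes spread downward, to 4.48 TPM for Psma2, and the β-ring genes lie between 96.6 and 505 TPM in S.

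Psma2 was the lowest of the Yumm1.7 constitutive genes, at 66 TPM in P input, 34.1 in P monosomes and 180 in P polysomes, and at 4.48, 10.8 and 19.7 TPM in the same fractions of S (-2.68 in input). It was lower in S in all 3 fractions. Psma1 followed, with 278 TPM in P and 33.2 TPM in S input (-2.09), while Psma7 of the same ring had 545 and 277 TPM (-0.04). The highest α-ring gene exceeded the lowest by 8.25-fold in P input and by 61.8-fold in S input, against 2.04-fold and 5.23-fold in the β ring. Across all 31 genes the standard deviation of the log2 level was 0.95 in P input and 1.71 in S input of Yumm1.7, and 0.93 and 1.10 in A375, so the subunit mRNAs were less even in S in both lines. Genes at 0 numbered 1581 in the S input library of Yumm1.7 and 316 in its P input library, and the part of this in the spread was not tested.

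Of the catalytic β subunits of Yumm1.7, Psmb5 and Psmb6 differed less in input TPM than Psmb7. Psmb5 stood at 576, 105 and 914 TPM in the input, monosomes and polysomes of P and at 505, 239 and 1231 TPM in S (0.75 in input). Psmb6 stood at 506, 159 and 765 TPM in P and 390, 269 and 843 TPM in S (0.56), and Psmb7 at 378, 130 and 736 TPM in P and 206, 155 and 416 TPM in S (0.06). In TPM all 3 were lower in S input and higher in S monosomes. In the regulatory particle, Psmd1, its large scaffold, was highest: 96.8, 30.9 and 115 TPM in P and 163, 180 and 163 TPM in S (1.68 in input). The ubiquitin receptor Psmd4 was also higher, at 281, 88.3 and 447 TPM in P and 389, 257 and 617 TPM in S (1.41). Psmc5 completed the 3 genes at least 2-fold higher, with 333 and 372 TPM in input (1.09), and these 3 had more TPM in S as well. Psmd14 was lower, as in A375, at 134, 67.3 and 277 TPM in P and 25.1, 35.7 and 57.3 TPM in S (-1.43). PSMA3, PSMD6 and PSMD14 were the constitutive genes at least 2-fold lower in the input of both lines. The share of all genes lower in both lines was not computed, so no agreement is read from this overlap. The values of the 31 genes correlated weakly across genes between the lines (r = 0.31, rho = 0.40).

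**Figure D2:**
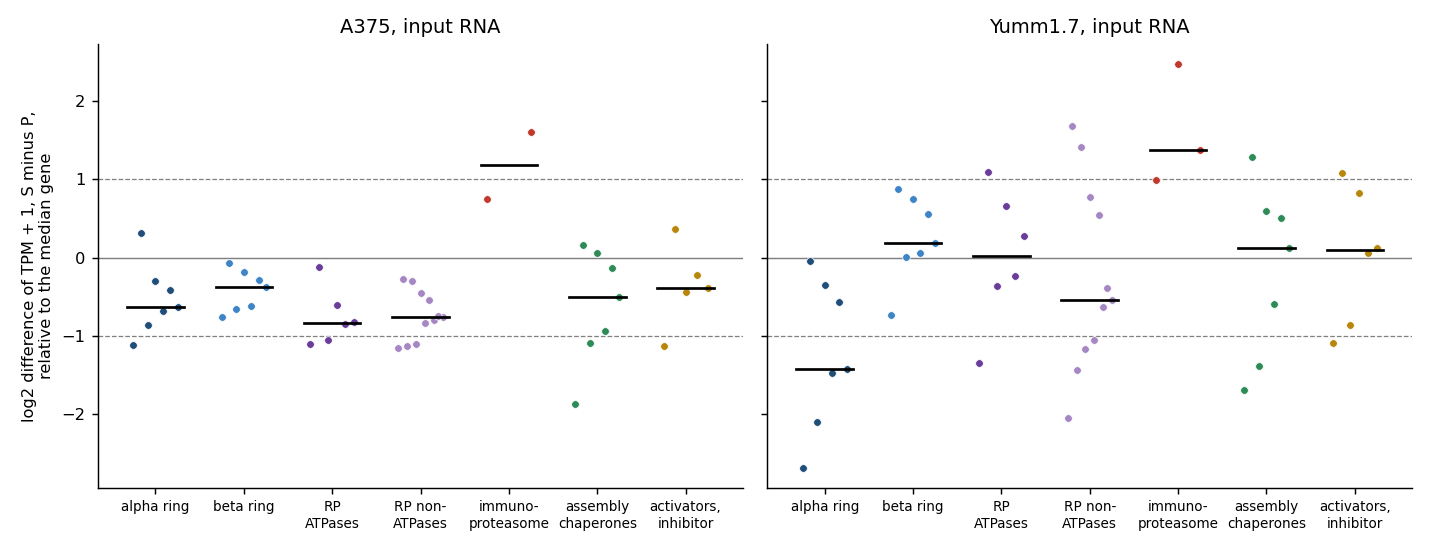
Difference of S against P in input RNA for each proteasome gene that passed the filter, as log2 of TPM plus 1 relative to the median gene, with 1 point per gene, a black bar at the list median and dashed lines at 2-fold (RP, regulatory particle). In A375 each constitutive list has its median below 0, and in Yumm1.7 the α ring has its median at -1.42 and the inducible subunits theirs at 1.37.

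In the ribosome fractions the constitutive genes of A375 were close to the median gene. In monosomes their median was 0.04, with 1 gene at least 2-fold higher (PSMD1, from 15 to 32.5 TPM, 1.03) and 0 lower, beside 11.7% and 13.2% of all genes. In polysomes the median was -0.19, with 0 higher and 1 lower (PSMD11, from 174 to 58.4 TPM, -1.35), beside 16.5% and 15.6% of all genes. Relative to the median gene, the difference of these mRNAs in the fractions was thus smaller than in input. On the TPM as deposited the medians were 0.08 in monosomes and -0.40 in polysomes. The log2 polysome-to-input ratio was higher in S than in P for 28 of the 31, with a median of 0.40. It was at least 2-fold higher for 2 (PSMA3 and PSMD1) and lower for 0, beside 5.87% and 2.48% of all genes.

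In Yumm1.7 monosomes the constitutive median was 0.39, with 6 genes higher by 2-fold or more and 4 lower, beside 25.4% and 24% of all genes. In polysomes it was 0.71, with 12 higher and 4 lower, beside 24.1% and 22.5%. This direction holds only relative to the median gene, since the polysome median was -0.82 on the TPM as deposited (0 higher, 14 lower) and -0.32 after rescaling without mitochondrial genes. The β ring stood at 1.59 in polysomes, with 6 of its 7 genes at least 2-fold higher, against 0.38 for the α ring, 0.86 for the ATPases and 0.03 for the non-ATPase subunits. As deposited, the β-ring polysome median was 0.06, and its summed level was 5165 TPM in P and 5321 TPM in S, while that of the α ring was 3350 and 1577 TPM. The polysome-to-input ratio had a median of 0.88, with 13 higher and 0 lower, beside 11.3% and 8.91% of all genes, and 28 of 31 genes above the median gene as in A375. On the TPM as deposited that median was 0.28.

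Within each state, the constitutive mRNAs were shifted to polysomes more than the median gene in every part of the particle. In A375 P the polysome level relative to the monosome level had a median of 1.99, with 29 of 31 genes at least 2-fold higher and 0 lower, beside 19.1% and 20.8% of all genes. In A375 S the median was 1.98, with 27 higher and 0 lower, beside 20.8% and 16.7%. In Yumm1.7 P it was 1.37, with 23 higher and 0 lower, beside 14% and 13.4%, and in Yumm1.7 S it was 1.72, with 23 higher and 0 lower, beside 13.2% and 10.9%. In P of both lines all 31 genes lay above the median gene, and 21 were at least 2-fold higher in both. The share of all genes higher in both lines was not computed, so no agreement is read from the 21. The order of the genes was not shared: across the 31 genes the correlation between the lines was r = 0.09 in P and 0.20 in S.

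**Figure D3:**
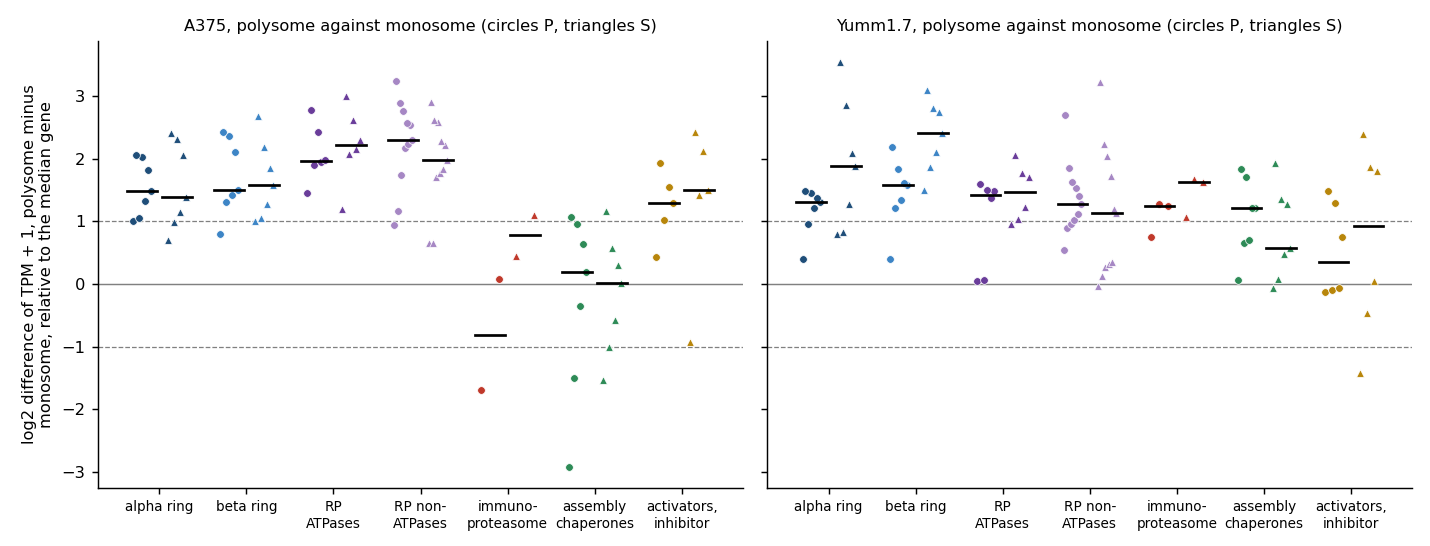
Polysome level against monosome level in each state, as log2 of TPM plus 1 relative to the median gene, for each proteasome gene that passed the filter, with circles for P, triangles for S and a black bar at each list median. The 4 constitutive lists lie above the upper dashed line of 2-fold for most genes in both lines, while the A375 chaperones have medians of 0.20 in P and 0.01 in S, with PSMG3 at -2.93 in P.

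In A375 the cap exceeded the core in this measure, with P medians of 2.30 for the non-ATPase subunits and 1.97 for the ATPases against 1.49 for the α ring and 1.51 for the β ring. PSMD2, a large scaffold of the cap, was highest at 20.4 TPM in P monosomes and 419 TPM in P polysomes (3.24), and PSMB2 was lowest at 38.1 and 139 TPM (0.79). In S they had 22.2 and 220 TPM, and 20.3 and 68.9 TPM. The longest coding sequences of the genes, from GENCODE 29, have medians of 1266 bases for the non-ATPase subunits and 1276.5 for the ATPases, against 756 and 723 for the rings. Across the 31 genes, the log2 coding length correlated with the P value at r = 0.52 (rho = 0.37), and across all 10912 genes with a coding length at r = 0.36 (rho = 0.33). In S these were 0.31 (rho = 0.27) and 0.14 (rho = 0.12). The points share their libraries, and the part of length in the polysome weighting was not tested. In Yumm1.7 P the order was not the same, with 1.57 for the β ring, 1.43 for the ATPases, 1.31 for the α ring and 1.28 for the non-ATPase subunits. There Psmd13 was highest, at 20.5 and 263 TPM (2.70), and Psmc6 lowest, at 133 and 260 TPM (0.05).

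The change of this ratio from P to S was small for the A375 particle and differed in Yumm1.7 by subunit. In A375 the median of the polysome-to-monosome ratio of S against P was -0.12, with 0 genes higher and 0 lower by 2-fold, beside 13.1% and 7.88% of all genes, and the range ran from PSMD14 at -0.95 to PSMA5 at 0.39. PSMA5, of the α ring, had 34.3 and 259 TPM in the monosomes and polysomes of P and 32.5 and 264 TPM in those of S. In Yumm1.7 the median was 0.35, with 9 higher and 1 lower, beside 17.3% and 12.6%. That median was -1.07 as deposited, -0.68 after rescaling and -0.09 with a pseudocount of 5 TPM, so its direction rests on the scaling. Psma3 had the highest value, at 134, 85.7 and 214 TPM in P and 24.5, 19.3 and 172 TPM in S (3.20), with a monosome level in S further below that in P than its polysome level. Psmd3 of the cap had the lowest, at 170, 34.8 and 243 TPM in P and 129, 107 and 85 TPM in S (-1.68), with more TPM in S monosomes and fewer in S polysomes. Across the 31 genes the ratios of the lines correlated at r = 0.51 (rho = 0.51), a description from 4 libraries of each line.

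Of the inducible catalytic subunits, PSMB10 had the highest input value of S against P in both lines. In A375 it alone of the 2 genes tested was at least 2-fold higher, beside 15.6% of all genes, and in Yumm1.7 Psmb10 and Psmb9 of 3 were, beside 23.1%, with 0 lower in either line. In A375 it was at 38.4 TPM in P input, 46.6 in P monosomes and 29.5 in P polysomes, and at 103, 69.1 and 151 TPM in the same fractions of S, higher in S in each fraction and most of all in polysomes. Relative to the median gene it was 1.60 higher in input, 0.52 in monosomes and 2.53 in polysomes. Its polysome-to-monosome value was -1.69 in P and 0.45 in S, a difference of 2.05, so that PSMB10 was weighted to monosomes in P while all constitutive subunits were weighted to polysomes. In Yumm1.7 Psmb10 was at 79.5, 25.5 and 82.8 TPM in P and 231, 114 and 269 TPM in S, again higher in S in each fraction (2.47 in input, 2.33 in monosomes and 3.22 in polysomes). Its polysome-to-monosome value was 0.75 in P and 1.69 in S, so the monosome weighting of A375 P was not seen there. Human PSMB10, on chromosome 16 from 67934502 to 67937087 on the minus strand, shares 170 exon bases with AC040162.1 on the same strand, whose reads the counting could have split.

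PSMB8, the inducible partner of PSMB5, was low in A375, at 2.31, 0.773 and 2.87 TPM in P and 3.85, 1.3 and 6.80 TPM in S (0.75 in input and 1.22 in polysomes). In Yumm1.7 Psmb8 had 33.4, 7.83 and 38.4 TPM in P and 34.7, 22.0 and 50.8 TPM in S, nearly level in input TPM (1.04-fold) and 0.99 above the median gene. PSMB9, the partner of PSMB6, stayed between 0.0873 and 0.336 TPM in A375 and did not pass the filter. Psmb9 of Yumm1.7 had 3.46, 0.884 and 7.57 TPM in P and 5.01, 2.82 and 4.86 TPM in S (1.37 in input). PSMB8 and PSMB9 lie head to head and share 139 exon bases, and how the counting used strand is not given in the sources used here. For the list, the input median was 1.17 over the 2 A375 genes that passed and 1.37 over the 3 Yumm1.7 genes, and 0.43 in Yumm1.7 as deposited.

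Set as a share of each inducible subunit with its constitutive partner, PSMB10 made up 6.80% of PSMB10 plus PSMB7 in A375 P input, 23.1% in monosomes and 3.32% in polysomes, and 26.3%, 27.9% and 21.0% in S. In Yumm1.7 it made up 17.4%, 16.4% and 10.1% in P and 52.9%, 42.4% and 39.2% in S. The share of Psmb10 in Yumm1.7 S was thus above that in P in each fraction, and it passed that of Psmb7 in input. The PSMB8 share of PSMB8 plus PSMB5 was 0.546% to 1.56% in A375 and 3.96% to 8.42% in Yumm1.7. The PSMB9 share of PSMB9 plus PSMB6 was 0.0465% to 0.217% in A375 and 0.554% to 1.27% in Yumm1.7. In each of the 12 libraries the inducible share was largest at the PSMB7 position. These shares compare TPM within a library, so they do not depend on the median gene.

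**Figure D4:**
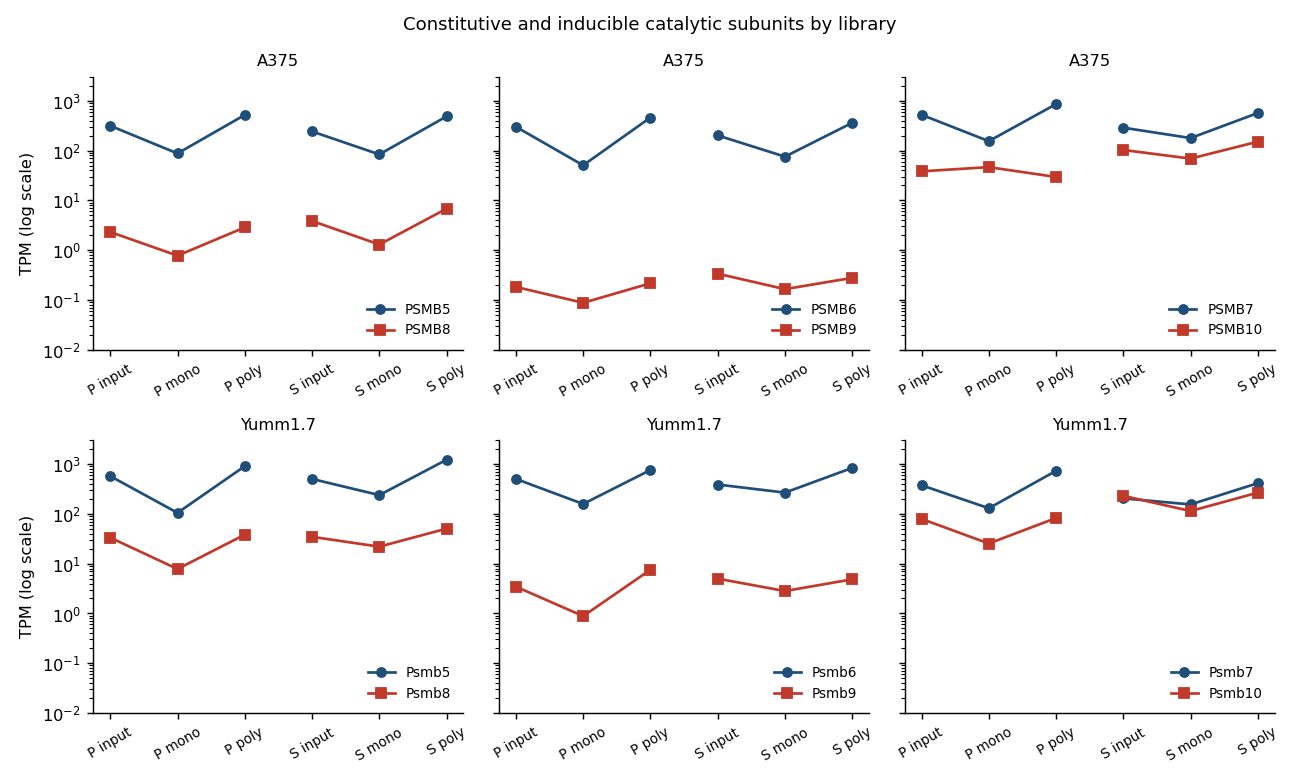
Levels in TPM, on a log axis, of each constitutive catalytic gene (blue circles) and the inducible gene that takes its place (red squares) in the 6 libraries of A375 (top) and Yumm1.7 (bottom), with 1 library per point and lines joining the fractions of a state. PSMB10 comes closest to its partner, from 38.4 to 103 TPM in A375 input and from 79.5 to 231 TPM in Yumm1.7 input, while PSMB9 stays below 1 TPM in A375.

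The assembly chaperones did not move as a group, and in A375 their polysome weighting was near that of the median gene. Their input median was -0.51 in A375, with 2 of 7 genes lower and 0 higher by 2-fold or more, beside 16.2% and 15.6% of all genes, and 0.12 in Yumm1.7, with 1 higher and 2 lower, beside 23.1% and 22.3%. With 7 genes, these counts are near the shares over all genes. The Yumm1.7 median is relative to the median gene, and all chaperones but Psmg4 had fewer TPM in S input there. In A375 P the polysome-to-monosome median was 0.20, with 1 gene higher and 2 lower, beside 19.1% and 20.8% of all genes, and in S it was 0.01. In Yumm1.7 it was 1.21 in P and 0.57 in S. The median coding length of the 7 human genes is 678 bases, below that of the rings.

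PSMG1 and PSMG2 form a pair that starts the α ring. PSMG1 had the lowest A375 input value of all proteasome genes, at 75.4, 20.1 and 91.3 TPM in P and 17.3, 9.81 and 20.2 TPM in S (-1.86 in input and -1.91 in polysomes), lower in S in each fraction. PSMG2 had 109, 35.9 and 118 TPM in P and 43.9, 32.9 and 53.1 TPM in S (-1.10 in input). In Yumm1.7 Psmg1 had 46.3, 13.8 and 99.1 TPM in P and 15.4, 18.8 and 53.9 TPM in S (-0.59). Psmg2 had 53.9, 21.7 and 98.4 TPM in P and 7.88, 9.30 and 18.1 TPM in S (-1.69). Both partners had fewer TPM in S input in both lines.

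PSMG3 and PSMG4 form the other chaperone pair of the α ring, and here the lines parted. In A375 PSMG3 had 87.9 TPM in P input, 119 in P monosomes and 31.6 in P polysomes, and 69.9, 45.7 and 24.7 TPM in S. It was highest in P monosomes, with a polysome-to-monosome value of -2.93 in P and -1.53 in S, the lowest of all proteasome genes. Its coding sequence, 366 bases, is also the shortest of them. In Yumm1.7 Psmg3 had 66.8, 15.1 and 98.7 TPM in P and 49.2, 39.1 and 42.2 TPM in S, lowest in P monosomes, with values of 1.71 in P and 0.57 in S. The monosome difference of S against P was therefore -1.40 in A375 and 1.52 in Yumm1.7. PSMG4 had 42.9, 25 and 18 TPM in A375 P and 18.9, 10.7 and 8.19 TPM in S (-0.94 in input and -1.20 in monosomes). Psmg4 had 62.4, 27.6 and 55.1 TPM in Yumm1.7 P and 79.4, 84.8 and 64.7 TPM in S (1.28 in input and 1.79 in monosomes), more in S in each fraction. The human PSMG4 exons share 1320 bases with SLC22A23 on the other strand, which was listed at 1.32 to 3.49 TPM. They also share 174 bases with TUBB2B on the other strand, listed at 3.90 to 47.8 TPM. The part of either overlap in the PSMG4 values was not tested.

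**Figure D5:**
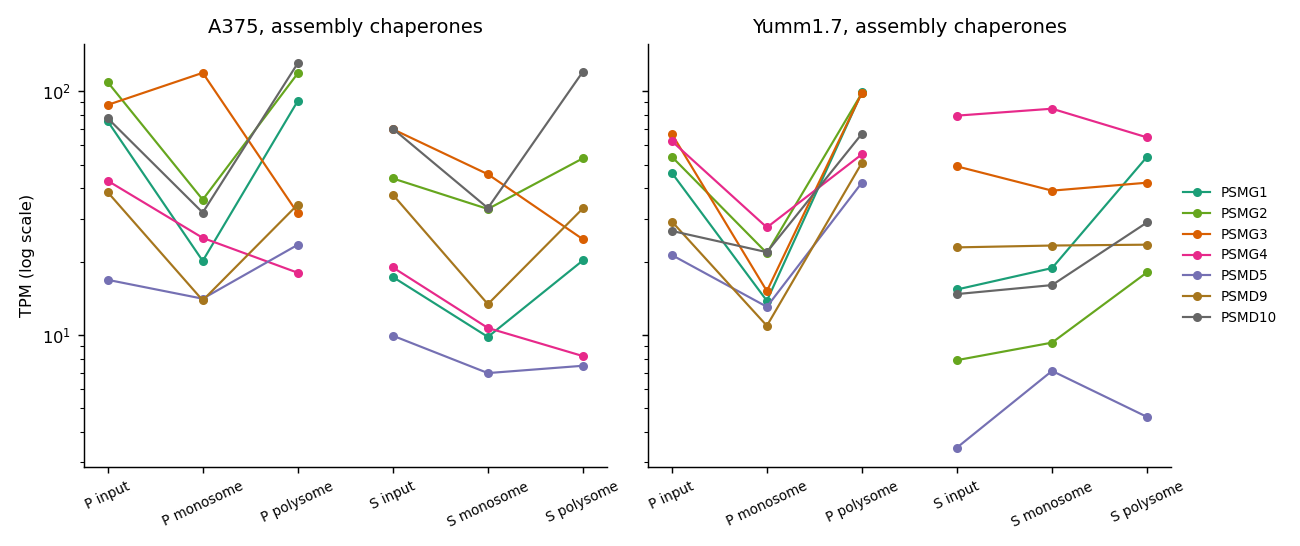
Levels of the 7 assembly chaperones in TPM, on a log axis, in the 6 libraries of A375 (left) and Yumm1.7 (right), with 1 library per point and lines joining the fractions of a state. PSMG3 peaks in monosomes in A375 P, at 119 TPM, and is lowest there in Yumm1.7 P, at 15.1 TPM, while PSMG1 and PSMG2 lie lower in S than in P in the input of both lines.

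PSMD5, PSMD9 and PSMD10 attend the ATPase ring of the cap. PSMD5 was low in every library, at 16.8, 14.1 and 23.4 TPM in A375 P and 9.93, 6.97 and 7.47 TPM in S (-0.51 in input and -1.32 in polysomes). Psmd5 had 21.3, 13.0 and 42.2 TPM in Yumm1.7 P and 3.45, 7.12 and 4.61 TPM in S (-1.39 and -1.41). It was lower in S than in P in each fraction of both lines. PSMD9 was level in A375, at 38.5, 13.9 and 34.3 TPM in P and 37.6, 13.4 and 33.1 TPM in S (0.16 in input). Psmd9 had 29.2, 10.9 and 50.9 TPM in Yumm1.7 P and 22.9, 23.3 and 23.5 TPM in S (0.60 in input and 1.24 in monosomes). PSMD10, also known as gankyrin, was level in A375 too, at 77.5, 31.8 and 130 TPM in P and 70.2, 33.2 and 120 TPM in S (0.06), and Psmd10 had 26.7, 21.9 and 67.0 TPM in Yumm1.7 P and 14.7, 16.0 and 29 TPM in S (0.12).

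The activators cap the core in place of the regulatory particle, and PSMF1 inhibits the core in the test tube. Their input median was -0.38 in A375 and 0.09 in Yumm1.7. The Yumm1.7 value is relative to the median gene, and all of these genes but Psme2 had fewer TPM in S input there. PSME1 and PSME2 form the interferon-induced cap. PSME1 had 91.1, 21.7 and 179 TPM in A375 P and 102, 35.2 and 308 TPM in S (0.36 in input and 0.99 in polysomes), higher in S in each fraction. Psme1 of Yumm1.7 had 186, 63.0 and 336 TPM in P and 45.0, 45.3 and 176 TPM in S (-1.09 in input), lower in each. PSME2 had 153, 43.7 and 226 TPM in A375 P and 98.3, 52.3 and 237 TPM in S (-0.44). Psme2 had 241, 74.3 and 346 TPM in Yumm1.7 P and 266, 214 and 570 TPM in S (1.08 in input and 2.25 in polysomes). The partners of the cap thus differed in opposite directions in the input of each line. Psme2b, a near copy of Psme2, had 69.4, 45.0 and 146 TPM in P and 64.2, 66.3 and 171 TPM in S, and the copies may share reads.

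PSME3, which forms the nuclear cap, was lower in A375 S in each fraction, at 201, 64.5 and 396 TPM in P and 79.1, 22.6 and 162 TPM in S (-1.13 in input, -1.51 in monosomes and -1.08 in polysomes). Its exons share 209 bases with BECN1 on the other strand, listed at 105 to 260 TPM. Psme3 of Yumm1.7 had 78.9, 67.4 and 122 TPM in P and 22.0, 46.6 and 24.0 TPM in S (-0.86 in input). PSME4, a large single-chain cap with 5529 coding bases, had 36.8, 13.3 and 39.1 TPM in A375 P and 24.2, 23.1 and 19.1 TPM in S. Psme4 had 12.8, 11.4 and 21.0 TPM in Yumm1.7 P and 6.85, 15.1 and 3.35 TPM in S. In both lines PSME4 was higher in S monosomes and lower in S polysomes than in P, and its polysome-to-monosome ratio of S against P was -1.45 in A375 and -1.29 in Yumm1.7. PSMF1 had 47.2, 16.6 and 73.3 TPM in A375 P and 34.8, 9.91 and 45.3 TPM in S (-0.23), and Psmf1 had 15.3, 12.5 and 22.3 TPM in Yumm1.7 P and 7.88, 16.2 and 12 TPM in S (0.06).

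The rows that match by letters or by name only were kept apart from the particle. PSMC3IP had 65.0, 43.6 and 39.1 TPM in A375 P and 11, 7.33 and 23.8 TPM in S, with an input value of -2.26, below every proteasome gene, and a polysome-to-input value of 1.81. Its exons share 710 bases with MLX on the other strand, listed at 43.0 to 95.9 TPM. Psmc3ip had 29.4, 20.1 and 30.8 TPM in Yumm1.7 P, was listed at 0 in S input, and had 4.2 and 4.63 TPM in the other S fractions. Of the antisense RNAs only PSMA3-AS1 passed the filter, at 36.1, 18.3 and 15 TPM in P and 33.4, 33.4 and 18 TPM in S. It was weighted away from polysomes, at -1.32 in P and -1.52 in S, while PSMA3 itself stood at 2.05 and 2.42. The other 4 stayed at or below 2.32 TPM, the level of PSMG3-AS1 in S input.

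Genes that act with the proteasome but carry other symbols were read from lists. Their input counts stand beside 15.6% of all genes at least 2-fold higher and 16.2% lower in A375, and 23.1% and 22.3% in Yumm1.7, and with so few genes a list the counts describe the members named and nothing particular to a list. Of 12 other components and partners, 2 were lower and 0 higher by 2-fold or more in A375 input, with a median of -0.41, and of the 11 tested in Yumm1.7 0 were higher and 4 lower, with a median of -0.71. POMP, the maturation factor of the core, moved with the particle in A375, from 652 to 362 TPM (-0.65). So did ADRM1, a ubiquitin receptor, from 241 to 132 TPM (-0.66). In Yumm1.7 input Pomp went from 258 to 148 TPM (0.14) and Adrm1 from 117 to 36.8 TPM (-0.71), both with fewer TPM in S. SEM1, a small subunit of the cap chosen after its values were seen, did not move with the particle in A375. It had 557 and 891 TPM in A375 input (0.88) and 238 and 708 TPM in A375 polysomes (1.78). Sem1 of Yumm1.7 had 83.8 and 15.5 TPM in input (-1.43). The deubiquitinases that bind the cap were lower in S in both lines: UCHL5 went from 103 to 22.7 TPM in A375 (-1.94) and from 94.0 to 10.5 TPM in Yumm1.7 (-2.11), the lowest of the list in each, and USP14 from 68.7 to 29.3 TPM (-1.01) and from 44 to 4.75 TPM (-2.03). AKIRIN2, which brings proteasomes into the nucleus, was at 0.60 in A375 and -0.65 in Yumm1.7. The highest of the list were PITHD1 in A375 (0.95) and Fbxo7 in Yumm1.7 (0.59), although Fbxo7 went from 6.91 to 5.22 TPM.

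Among 8 regulators of proteasome genes, 2 were lower and 0 higher by 2-fold or more in A375 input (median -0.15), and 1 was higher and 3 lower in Yumm1.7 (median -0.63). NFE2L1 had more TPM in S input in both lines, from 104 to 142 TPM in A375 (0.63) and from 68.1 to 124 TPM in Yumm1.7 (1.79), while most subunit mRNAs had fewer. DDI2, the protease that releases NFE2L1, had fewer, from 13.1 to 4.75 TPM in A375 (-1.09), and a value of -0.82 in Yumm1.7. The lowest regulators were MAFF in A375 (-2.12) and Nfe2l2 in Yumm1.7, from 59.7 to 1.7 TPM (-3.56), and the highest in A375 was KEAP1 (0.65).

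Of 16 genes of ubiquitin supply and shuttling, 15 were tested in A375 input with 1 higher and 1 lower (median -0.07), and 16 in Yumm1.7 with 3 higher and 3 lower (median -0.11). The polyubiquitin gene UBB had 1956 and 1673 TPM in A375 input (-0.03) and 1078 and 1971 TPM in Yumm1.7 (1.81). In A375 polysomes UBB had 4087 TPM in P and 6058 TPM in S. The extremes of the list in input were RAD23B (-1.26) and ZFAND5 (1.31) in A375, and Ubqln2 (-2.53) and Ubb in Yumm1.7.

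Of 8 genes of interferon-linked antigen processing, 6 were tested in A375 input with 3 higher and 0 lower (median 1.06), and 8 in Yumm1.7 with 1 higher and 2 lower (median -0.25). The difference between the lines was not tested. In A375 B2M, the light chain of the antigen-presenting molecule, had 1192 TPM in P and 5392 TPM in S (2.38), the highest of the list, IRF1 was at 0.32, and TAP1 had a mean under 1 TPM. In Yumm1.7 Irf1 was highest, from 20.2 to 37.4 TPM (1.79), Nlrc5 lowest (-1.54), and Tap1 and B2m were at -0.80 and -0.46.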

How the data were processed

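Polysome profiling RNA of A375 and Yumm1.7 cells in states P and S was sequenced as 12 libraries, 1 per line, state and fraction. Per the labels' protocols, RNA was taken with Trizol-LS, poly-A RNA was caught on poly-T beads, and cDNA was primed at random and amplified. The authors deposited TPM in 1 table per line. Per the submitters' processing notes the builds were GRCh38 (hg38) and GRCm38 (mm10). For the aligner, the quantifier, the annotation release and the use of strand nothing is given in the sources used here. TPM keeps no depth, so no counting error was computed, and the tables hold only genes averaging 0.1 TPM or more. Reads of near-identical copies, pseudogenes and overlapping genes may be split.

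Python 3.11.15 with pandas 2.3.3, numpy 2.4.6 and matplotlib 3.10.9 was used. A pseudocount of 1 TPM was added before log2, genes with a mean under 1 TPM were left out, the median gene was subtracted, and a 2-fold difference was counted. The calculation was checked on simulated data. No test was made, since each group has 1 library. Alternatives were pseudocounts of 0.1 and 5 TPM, no filter, a minimum of 10 TPM, centring on those genes, TPM as deposited, and TPM rescaled without mitochondrial genes. Promoter sequence is RefSeq's for GRCh38.p14, and human gene positions and coding lengths are from GENCODE 29. No mouse annotation was used.

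The members and lists were chosen with earlier results of these data known. Named with all values were the inducible subunits that passed the filter, chaperones, activators and inhibitor, PSMB5, PSMB6, PSMB7, PSMD14 and PSMD4. In each line the highest and lowest other constitutive gene was named with at least the values compared. This was done for input, for polysome against monosome in P, and for the ratio of S against P. Other genes named, and the place of Psme2b among the activators, were chosen after their values were seen. The values of 2 genes that the rule for the other lists names are not reported here.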

Additional observations from a re-analysis of the deposited data

Results flagged for a closer look

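For 2 chaperone genes the lines differed in opposite directions by at least 2-fold. PSMG3 in monosomes, S against P, was -1.40 in A375 and 1.52 in Yumm1.7. Its polysome-to-monosome value in P was 1.71 in Yumm1.7 against -2.93 in A375, and the ratio of S against P was 1.31 in A375 against -1.10 in Yumm1.7. PSMG4 in monosomes, S against P, was -1.20 in A375 and 1.79 in Yumm1.7. These are single libraries of different species, and the differences between the lines were not tested.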

How the results depend on the processing

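On the TPM as deposited, without subtracting the median gene, the median of the 31 constitutive genes moved to 3.04 and 2.65 for polysome against monosome in A375 P and S, and in Yumm1.7 to -1.29 for input, -0.82 for polysome, 2.28 for polysome against monosome in P, -1.07 for the polysome-to-monosome ratio and 0.28 for the polysome-to-input ratio, and the ratio of Psme2b reversed to -0.32. Rescaled without mitochondrial genes, the Yumm1.7 medians were -1.005 for input, -0.32 for polysome and -0.68 for the ratio. The same rescaling moved the summed level to 7458 TPM in A375 P monosomes, 10970 in S input and 7908 in S monosomes, and to 8579 in Yumm1.7 S input, 6622 in S monosomes and 17680 in S polysomes. The cause was not tested beyond the scaling itself. With the 3 inducible pairs summed, the immunoproteasome share was 13.9% in A375 P monosomes and 17.3% in S monosomes. The other settings moved 0 of the 14 medians by over 1.5 times, although the Yumm1.7 polysome-to-monosome ratio turned from 0.35 to -0.09 with a pseudocount of 5 TPM. Of 28 counts of members, 12 moved as deposited, 9 rescaled, 7 with a pseudocount of 5 TPM, 2 without the filter and 1 with either use of the 10 TPM minimum. Single genes moved for 149 of 294 values as deposited, 69 rescaled, 6 with a pseudocount of 5 TPM and 3 with 0.1 TPM. No paired analysis was possible because each group has 1 library, and none could be left out.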

Other observations

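Among the rows dropped for their ending, PSME3IP1 is a protein-coding gene whose symbol happens to end like that of a pseudogene, and its product binds PSME3. It had 91.4, 28.6 and 112 TPM in the input, monosomes and polysomes of A375 P and 56.5, 37.2 and 103 TPM in S, lower in S input as PSME3 was. PSMC1P1, a pseudogene of PSMC1, was listed at 9.60, 2.28 and 15.9 TPM in P and 3.67, 2.18 and 12 TPM in S. PSMA6P1, a pseudogene of PSMA6, was listed at 5.00, 0.650 and 11.1 TPM in P and 1.39, 0.687 and 10.1 TPM in S, lower in S input while PSMA6 was not. The other dropped rows stayed at or below 1.23 TPM, and reads of the parent genes may be among them.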
